A study of Mus musculus with 6 samples.

Results

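C-fibre low-threshold mechanoreceptors (C-LTMRs) were followed through 6 genes, Wfdc2, Th, Tafa4, Zfp521, Ceacam10 and Gfra2. A probe set (a group of short array probes for one transcript) was taken where the array annotation lists exactly one of these symbols. This gave 13 probe sets among the 45037 that were tested, and 6 of the 18193 genes that any probe set names alone. Each gene is represented by the brightest of its probe sets, the one with the highest mean log2 intensity over the 6 arrays. All 6 genes lay above the median of all probe sets, an intensity of 64.8. Total RNA was extracted at P60 from whole dorsal root ganglia (DRGs), of 3 Meis1cko mice and of 3 control mice, with 1 array per mouse, and the labels number the arrays of a genotype as biological replicates. Meis1cko mice, Meis1 mutant in the labels, carry a floxed Meis1 allele, Meis1F, and the Nav1.8-Cre transgene, in which a Nav1.8 promoter fragment drives Cre in most nociceptive neurons, so Meis1 stays intact in the other cells of the extract. The array labels call the other mice control. The study names Meis1F/F littermates as controls in its behavioural tests and uses both sexes, without giving either for single arrays. Ganglia of the cervical, thoracic and lumbar levels were extracted together, so no value here separates axial levels. In such an extract, fewer C-LTMRs and less RNA per C-LTMR cannot be told apart.

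C-LTMRs are unmyelinated sensory neurons that end around hair follicles and respond to gentle, slow touch of hairy skin. In the mouse they arise in the Runx1 lineage together with nonpeptidergic nociceptors and are recognised in the adult ganglion by Th. The 6 genes stand for different parts of such a neuron. Wfdc2 and Tafa4 encode secreted proteins, Gfra2 the neurturin-binding subunit of a receptor that signals through Ret, Ceacam10 a member of the carcinoembryonic antigen family, Th the rate-limiting enzyme of catecholamine synthesis and Zfp521 a zinc finger protein of the nucleus. All but Gfra2 are marker genes for which the paper reports values of these arrays, so their choice is not independent of the data.

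The promoter windows of the genes are shown because Meis1 is a DNA-binding factor and the genes are read together here. RefSeq windows of 250 bases before to 50 bases after the annotated start (GRCm38.p6) were looked up by symbol. The first window listed is shown for 4 of the 6 genes, and Zfp521 and Gfra2 are named only. The windows lie at chr2:164562465-164562764 on the plus strand for Wfdc2, chr7:24776917-24777216 on the plus strand for Ceacam10, chr6:97060362-97060661 on the minus strand for Tafa4 and chr7:142899946-142900245 on the minus strand for Th. Each is written 5′ to 3′ along the gene. Capitals mark TGACAG, the core letters bound by Meis factors (CTGTCA on the other strand), and TGACGTCA, the cyclic AMP response element.
Wfdc2: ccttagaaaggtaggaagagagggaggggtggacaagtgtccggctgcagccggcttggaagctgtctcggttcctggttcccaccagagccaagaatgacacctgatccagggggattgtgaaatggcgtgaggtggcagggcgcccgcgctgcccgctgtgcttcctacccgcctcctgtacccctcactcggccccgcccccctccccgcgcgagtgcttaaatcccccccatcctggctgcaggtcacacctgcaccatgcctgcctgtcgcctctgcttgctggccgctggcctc
Ceacam10: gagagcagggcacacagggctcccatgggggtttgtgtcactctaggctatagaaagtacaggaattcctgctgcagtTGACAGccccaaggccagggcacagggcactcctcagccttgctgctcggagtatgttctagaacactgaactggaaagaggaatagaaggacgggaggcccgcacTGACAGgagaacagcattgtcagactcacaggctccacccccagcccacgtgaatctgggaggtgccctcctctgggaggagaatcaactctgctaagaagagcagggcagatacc
Tafa4: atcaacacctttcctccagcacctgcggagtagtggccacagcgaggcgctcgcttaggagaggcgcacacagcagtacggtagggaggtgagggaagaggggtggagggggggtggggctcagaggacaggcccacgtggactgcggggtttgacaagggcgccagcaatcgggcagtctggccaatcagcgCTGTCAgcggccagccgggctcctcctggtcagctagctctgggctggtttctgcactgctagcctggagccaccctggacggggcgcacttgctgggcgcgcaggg
Th: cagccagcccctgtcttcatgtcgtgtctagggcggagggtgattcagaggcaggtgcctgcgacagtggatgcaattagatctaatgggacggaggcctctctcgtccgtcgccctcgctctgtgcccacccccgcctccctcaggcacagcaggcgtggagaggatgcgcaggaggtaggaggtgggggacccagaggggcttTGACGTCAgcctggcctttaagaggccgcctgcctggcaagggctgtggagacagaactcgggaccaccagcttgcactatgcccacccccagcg

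TGACAG, searched on both strands, occurred 2 times in the Ceacam10 window, starting 172 and 66 bases before the gene's start, and 1 time in the Tafa4 window, 57 bases before the start on the opposite strand. Among 27025 RefSeq promoter windows, the first listed for each gene, 19.3% held it at least once and 2.32% held it 2 or more times. The Wfdc2 and Th windows shown did not hold these letters. Wfdc2 and Ceacam10 have 2 RefSeq windows each, and only the first was searched. The longer TGATTGAC, read by Pbx and Meis proteins together and sharing the letters TGAC with the other motifs, was in none of the 4 windows and in 0.781% of all windows. TGACGTCA was in the Th window, 45 bases before the start, and in 1.88% of all windows. These are matches of letters and not measured binding sites.

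Facts of the arrays that touch these genes are few. Meis1, the targeted gene, had intensities of 66, 72.1 and 64.2 in the Meis1cko mice and 110, 144 and 90.2 in the control mice on its brightest probe set (where it lies against the floxed exon was not analysed here). Its log2 fold change of -0.74 (SE 0.18) passed in limma neither without pairing nor with it (adjusted p = 0.16 with pairing). The remaining Meis1 probe sets lay below the median of all probe sets. The brighter had 34.2, 33.8 and 36.8 in Meis1cko and 33.7, 29.9 and 32.3 in control DRGs, a log2 fold change of 0.13. The dimmer had -0.16, with groups that overlap. The median intensity of the arrays was 62.5 to 65.5 in Meis1cko and 64.3 to 65.0 in control DRGs. Both replicate 3 arrays stood apart from the other 4 on the first principal component, which held 59.2% of the variance. Actb is probed at its 3′ and its 5′ end, and the log2 excess of the 3′ signal, larger in shorter RNA, was 0.44 and 0.42 on the replicate 3 arrays (Meis1cko and control) and 1.23 to 1.66 on the others. The peripherin gene Prph, bright in DRG neurons, had 12897 to 14736 in Meis1cko and 13202 to 14243 in control DRGs.

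The 6 genes had lower means in Meis1cko than in control DRGs. Over all probe sets, 52.9% had a log2 fold change below 0. In the main fit, without pairing, 0 of the 6 passed over all probe sets. Wfdc2 passed in an alternative fit with the replicates paired. The labels do not say that same-numbered arrays are pairs, and this was inferred from the arrays themselves. The log2 fold changes of the 6 genes (Meis1cko minus control) ran between -1.43 for Wfdc2 and -0.14 for Gfra2, with a median of -0.36, against a median of -0.01 over all probe sets. Without pairing, limma called 0 of the 6 at an adjusted p under 0.05, where it called 0.0155% of all probe sets in either direction. With the replicate number as a block it called 1 of the 6, Wfdc2, as lower, where 0.0377% of all probe sets were called lower. Under a looser rule of more than 1.5-fold and an unadjusted p under 0.05, the thresholds named in the methods, Wfdc2 alone passed as lower in limma, as did 0.357% of all probe sets.

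**Figure D1:**
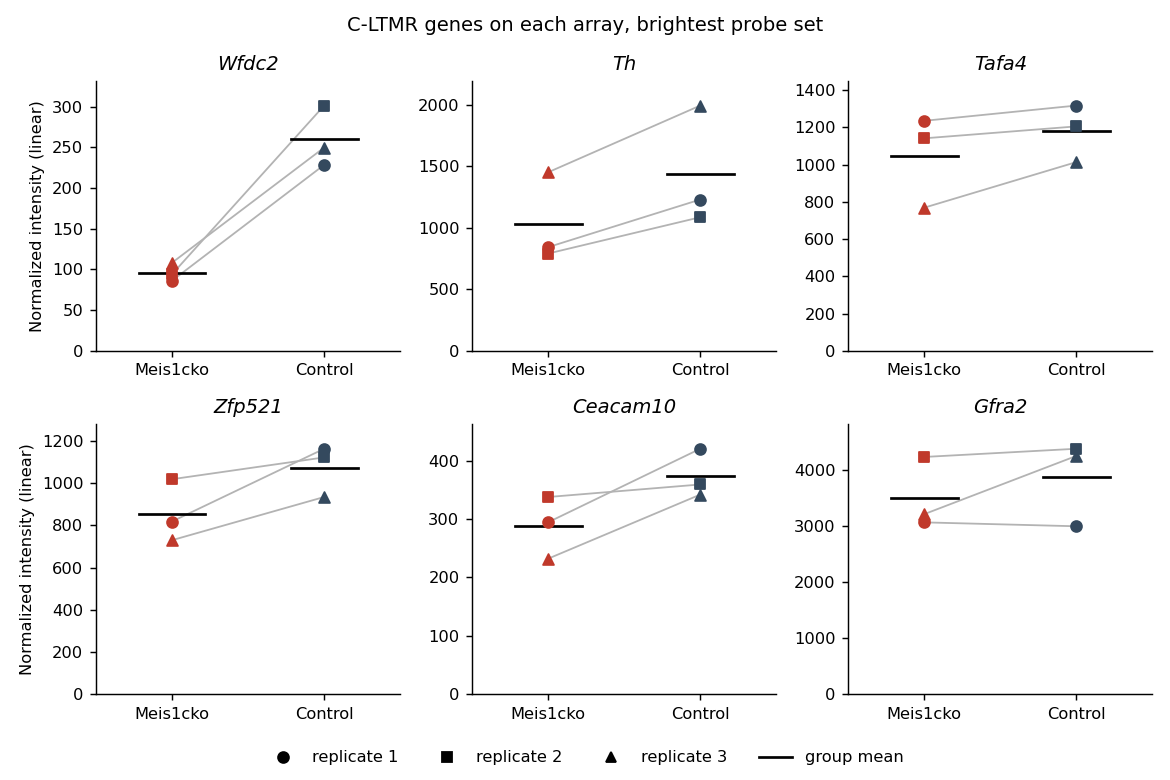
Normalized intensity (linear scale, starting at 0) of the brightest probe set of each gene in the 3 Meis1cko and 3 control mice, with grey lines joining arrays of the same replicate number and black bars for group means. For Wfdc2 the Meis1cko mice lie at 86.1 to 108 and the control mice at 229 to 302, and of the other 5 genes Ceacam10 alone has groups that do not overlap.

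Wfdc2, which encodes a small secreted protein with the disulfide core domain of whey acidic protein, had intensities of 86.1, 94.0 and 108 in the Meis1cko mice, against 229, 302 and 250 in the control mice. Every Meis1cko mouse was below every control mouse, and none was below the median of all probe sets. The means were 96.1 ± 11.2 in Meis1cko and 260 ± 37.5 in control DRGs (SD, n = 3 mice each), a ratio of 0.370 with a 95% interval of 0.289 to 0.475. On the log2 scale the mice differed by -1.43 (SE 0.15), which did not pass without pairing (adjusted p = 0.0805 in limma). With the replicates paired, Wfdc2 fell with an adjusted p of 0.0122 in limma (SE 0.12), and over all 18 alternative settings its adjusted p ran between 0.000424 and 0.917. The 3 pairs gave log2 differences of -1.41, -1.68 and -1.21. Leaving out each pair in turn from the paired fit kept Wfdc2 past the threshold, with adjusted p = 0.0358 in limma without replicate 3 as the highest. The share of all probe sets called ran between 0.0799% and 0.837% in these fits, which use fewer arrays and were added after seeing the data. With single arrays left out of the unpaired fit, Wfdc2 did not pass in any case. Its adjusted p in limma there ran between 0.0911 (without Meis1cko replicate 3) and 0.531 (without Meis1cko replicate 2). Wfdc2 ranked 14 by p among all probe sets in the unpaired fit and 21 in the paired one.

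Cells other than C-LTMRs can also make Wfdc2, among them epithelia. Of 6 epithelial markers, the cadherin gene Cdh1 was bright, at 3563 to 3780 in Meis1cko and 2855 to 3599 in control DRGs, and the adhesion gene Epcam was above the median of all probe sets, at 115 to 120 in Meis1cko and 117 to 125 in control DRGs. The keratin genes Krt5, Krt14, Krt8 and Krt18 were below that median, at 11.7 to 61.8 over the 6 arrays. The 6 markers together, mostly Cdh1, summed to 3837 to 4047 in Meis1cko and 3106 to 3850 in control DRGs, 1 of 6 had a log2 fold change below 0, and their median was 0.14. Which cells of the ganglion made the Cdh1 RNA is not known from these arrays, so the sum is no measure of epithelial cells. The part of epithelial cells in the Wfdc2 difference was not tested. Among connective tissue markers the proteoglycan gene Lum went with Wfdc2. It had 437, 388 and 430 in Meis1cko and 1158, 913 and 1119 in control DRGs. Its log2 fold change was -1.34 (SE 0.14), which passed with the replicates paired (adjusted p = 0.00717 from limma) and not without (adjusted p = 0.0686). The collagen genes Col1a2 and Col1a1 had -0.58 and -0.54, and the contractile gene Acta2 had 0.76. Of the 8 fibroblast and vessel markers 6 lay below 0, with a median log2 fold change of -0.29 over the 8. Their summed intensity was 7116 to 9378 in Meis1cko and 9579 to 15030 in control DRGs. None of the 8 was listed at 0. The part of connective tissue in the Wfdc2 difference was not tested.

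Th had intensities of 842, 790 and 1451 in the Meis1cko mice, against 1229, 1085 and 1993 in the control mice. The groups overlap, with replicate 3 the highest in both genotypes, and the Meis1cko mouse was below the control mouse of its number in each pair. The means were 1027 ± 367 in Meis1cko and 1436 ± 488 in control DRGs (SD, n = 3 mice each), a log2 fold change of -0.49 (SE 0.30, 95% interval -1.20 to 0.22). The 3 pairs agreed closely, with log2 differences of -0.55, -0.46 and -0.46, and the paired interval was -0.72 to -0.25. In limma Th passed neither without pairing (adjusted p = 1.0) nor with it (adjusted p = 0.265). Leaving out 1 replicate 3 array moved its log2 fold change. It was -0.76 without Meis1cko replicate 3, where Th passed the thresholds of the methods, and -0.23 without control replicate 3. With both replicate 3 arrays left out it was -0.50. Sympathetic neurons also express Th. Of 7 measured sympathetic markers 3 were above the median of all probe sets. The noradrenaline-synthesising enzyme gene Dbh had 224 to 441 in Meis1cko and 243 to 382 in control DRGs, and the noradrenaline transporter gene Slc6a2 had 79.8 to 100.3 in Meis1cko and 91.1 to 112 in control DRGs. The transcription factor gene Gata2 had 123 to 149 in Meis1cko and 116 to 133 in control DRGs. Npy, at 47.6 to 70.0 over the 6 arrays, and the transcription factor genes Phox2a, Hand2 and Gata3, at 9.52 to 27.2, were below it on average. The 7 summed to 534 to 790 in Meis1cko and 582 to 722 in control DRGs, with a median log2 fold change of -0.04. The part of sympathetic neurons in the Th values was not tested.

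Zfp521, a nuclear zinc finger protein known to bind EBF transcription factors, had intensities of 819, 1020 and 730 in the Meis1cko mice, against 1164, 1123 and 935 in the control mice. The groups overlap through Meis1cko replicate 2, and each Meis1cko mouse was below the control mouse of its number. The log2 fold change was -0.33 (SE 0.16, 95% interval -0.72 to 0.05). Its other probe set, 1439909_at, lay near the median of the array, with 65.2, 61.0 and 56.9 in Meis1cko and 87.0, 69.6 and 65.7 in control DRGs. There the groups did not overlap, and the log2 fold change was -0.27 (SE 0.14).

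Ceacam10 had intensities of 294, 338 and 232 in the Meis1cko mice, against 420, 359 and 342 in the control mice. The groups did not overlap, though the highest Meis1cko mouse and the lowest control mouse differed by little. The log2 fold change was -0.39 (SE 0.17, 95% interval -0.79 to 0.01). Its probe set 1448573_a_at had 255, 268 and 156 in Meis1cko and 332, 320 and 170 in control DRGs, with both replicate 3 arrays low, groups that overlap and a log2 fold change of -0.26 (SE 0.31). The third, 1436565_at, was dim at 14.0 to 17.1 in Meis1cko and 15.1 to 17.5 in control DRGs and had -0.11 (SE 0.13). Neither Zfp521 nor Ceacam10 passed over all probe sets, with adjusted p = 1.0 for both in limma, and with the replicates paired 0.609 and 0.592.

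Tafa4, a secreted chemokine-like protein known in the mouse to restrain mechanical hypersensitivity after injury, had intensities of 1236, 1142 and 769 in the Meis1cko mice, against 1318, 1206 and 1014 in the control mice. The groups overlap, and the pairs of replicates 1 and 2 differed by little, at -0.09 and -0.08 on the log2 scale, against -0.40 for replicate 3. The log2 fold change was -0.19 (SE 0.21, 95% interval -0.67 to 0.29), and without Meis1cko replicate 3 it was 0.02. The paired interval was -0.46 to 0.08, and in neither fit did Tafa4 pass (adjusted p = 1.0 and, with the replicates paired, 0.802 in limma).

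Gfra2 had intensities of 3064, 4232 and 3210 in the Meis1cko mice, against 2994, 4378 and 4251 in the control mice, on 1433716_x_at. The groups overlap, pair 1 was higher in Meis1cko, and the log2 fold change was -0.14 (SE 0.20, 95% interval -0.61 to 0.32). The suffix _x_at marks probes that can also bind other transcripts, and both bright Gfra2 probe sets carry it. So do the probe sets read above for Epcam, Krt14, Krt8 and Dbh. The 5 Gfra2 probe sets had log2 fold changes between -0.26 and -0.06, so that their means were lower in Meis1cko on each of them without passing on any. The part of cells other than C-LTMRs in the Gfra2 values was not tested.

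**Figure D2:**
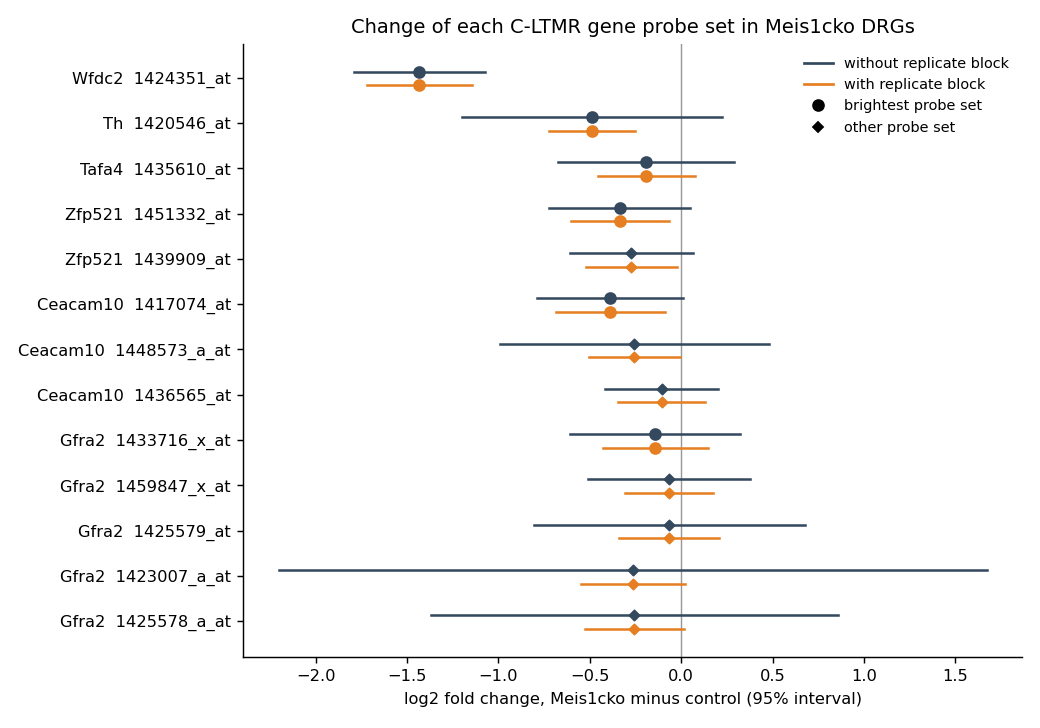
Log2 fold change (Meis1cko minus control) of the 13 probe sets of the 6 genes with 95% intervals from limma, without the replicate block in dark grey and with it in orange; circles mark the brightest probe set of a gene and diamonds the others. All 13 estimates lie below 0, the Wfdc2 interval lies below -1, and the widest unpaired interval is that of Gfra2 1423007_a_at.

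The Gfra2 probe sets did not behave alike across mice. On 1423007_a_at the Meis1cko mice had 88.0, 83.4 and 378 and the control mice 97.5, 90.1 and 547, so that replicate 3 was 4.41 times the geometric mean of the other replicates in Meis1cko and 5.83 times in control DRGs. On 1425578_a_at replicate 3 was 2.25 and 2.70 times the others (Meis1cko and control), and on 1425579_at 1.57 and 2.00 times. On 1459847_x_at it was 0.733 and 0.801 times the others. On 1423007_a_at replicate 3 thus stood farther from the mice of its own genotype than from replicate 3 of the other genotype. The replicate 3 arrays are those with the lowest 3′ excess of Actb, and the part of RNA length in the Gfra2 values was not tested.

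**Figure D3:**
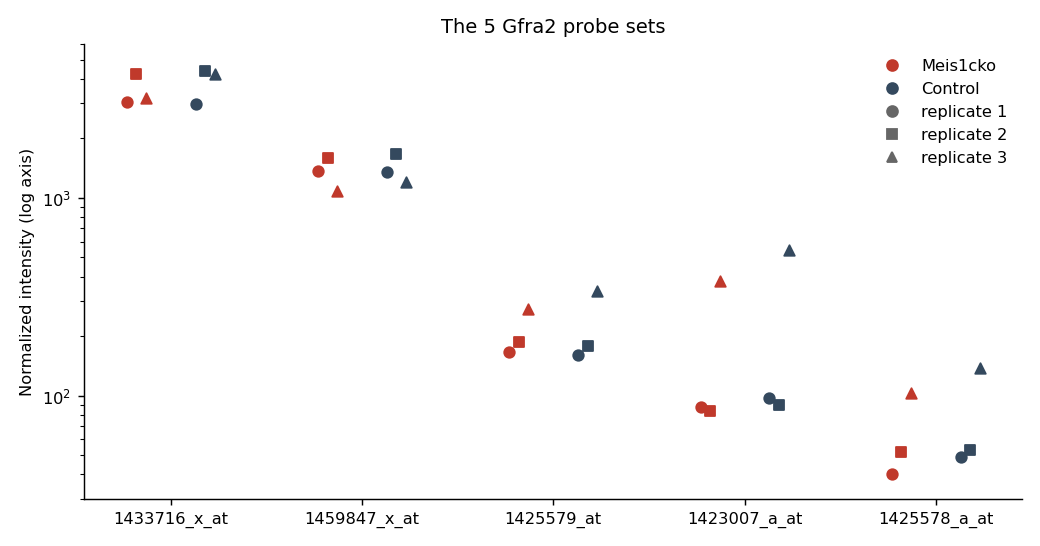
Normalized intensity (log axis) of the 5 Gfra2 probe sets in the Meis1cko mice (red) and control mice (dark grey), with a marker shape for each replicate number. Replicate 3 lies at 378 and 547 on 1423007_a_at, where the other 4 mice lie at 83.4 to 97.5.

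Compared by replicate number, the Meis1cko mouse was the lower one in 17 of the 18 pairs formed by the 6 genes and 3 numbers, the exception being Gfra2 in pair 1. In all, 5 genes, Wfdc2, Th, Tafa4, Zfp521 and Ceacam10, were lower in each of the 3 pairs, as were 15.7% of all probe sets and 19.3% of those at or above the median. The genes share mice and arrays, so the 17 are not independent of each other. Groups that did not overlap were found for 2 of the 6 genes, Wfdc2 and Ceacam10, both lower, against 3.43% of all probe sets. For either gene p = 0.1 in a two-sided exact permutation test, the smallest that 3 mice against 3 allow.

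**Figure D4:**
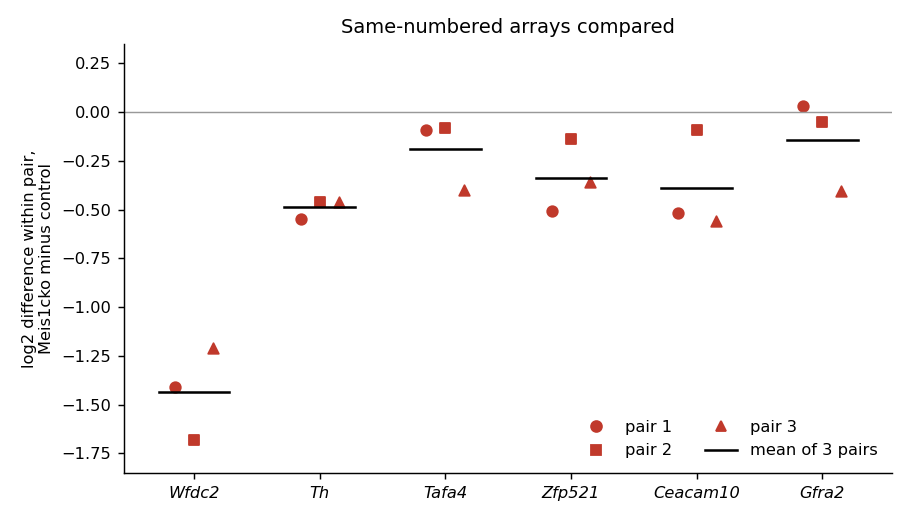
Log2 difference within each pair of same-numbered arrays (Meis1cko minus control) for the 6 genes, with a marker shape per pair and black bars for the mean of 3 pairs. The Wfdc2 pairs lie between -1.68 and -1.21, the Th pairs between -0.55 and -0.46, and 1 point, Gfra2 in pair 1 at 0.03, lies above 0.

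The difference of Wfdc2 was larger than that of the other genes in every pair. The mean log2 difference of the other 5 genes was -0.33, -0.16 and -0.44 in pairs 1, 2 and 3, and Wfdc2 lay below it by a further -1.08, -1.52 and -0.77. On the array scale, Wfdc2 minus the mean of the other 5 genes was -3.46, -3.49 and -3.06 in Meis1cko mice and -2.38, -1.97 and -2.29 in control mice, without overlap. This is an unequal difference within arrays and carries no test, since the genes were chosen with results of these arrays known.

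Across the 6 mice the genes correlated in both directions. Of 15 pairs of genes, 11 had a Pearson correlation above 0, and the range was -0.51 (Th with Tafa4) to 0.95 (Zfp521 with Ceacam10). Zfp521 and Ceacam10 had r = 0.95 (exact permutation p = 0.00278, adjusted over the 15 pairs 0.0417) and rho = 0.94 (exact permutation p = 0.0167, adjusted 0.25). These p-values permute all 6 arrays freely and take no account of genotype or of the pairing, which all of these genes share, so the correlations are given as descriptions. Without the 2 mice farthest from the median of Zfp521, Meis1cko replicates 1 and 3, their r was 0.79, and with genotype means removed it was 0.90. With genotype means removed, Th went against Tafa4 (r = -0.90), Zfp521 (-0.86) and Ceacam10 (-0.79). Replicate 3 held the opposite ends: Th was 1.78 times the other replicates in Meis1cko and 1.73 times in control DRGs, while Tafa4 was 0.647 and 0.804 times and Ceacam10 0.736 and 0.880 times. The part of the replicate 3 arrays in these relations was not tested beyond these values.

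The genes whose pattern over the 6 arrays was most like that of Wfdc2 were taken from the 5627 other genes at or above the median intensity that varied by an SD of at least 0.2 on the log2 scale. The closest were Dpp10 (r = 0.99), an auxiliary subunit of Kv4 potassium channels, Tbc1d4 (r = 0.98), a Rab GTPase-activating protein, and Cnmd (r = 0.98), which encodes chondromodulin. Dpp10 had 2376, 2545 and 2589 in Meis1cko and 3639, 3871 and 3538 in control DRGs, a log2 fold change of -0.56 (SE 0.11). Tbc1d4 had -0.94 (SE 0.13) and Cnmd -1.07 (SE 0.12). Because the genes were picked for likeness to Wfdc2 over these same arrays, lower Meis1cko means follow from the choice and carry no test. For Th the closest were Fdps (r = 0.99), an enzyme of isoprenoid synthesis, 1110004F10Rik (r = 0.99) and the proteasome subunit gene Psmd8 (r = 0.99). Fdps had 2481, 2399 and 3389 in Meis1cko and 2988, 2702 and 3922 in control DRGs, high on replicate 3 in both genotypes. An r over 0.95 was found for 7 of the 5627 genes with Wfdc2 and for 34 with Th.

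Other genes known from C-LTMRs lay on both sides of 0. Of 8 measured, 0 were called higher or lower in limma with or without pairing, 4 lay below 0 and 4 above, and their median log2 fold change was -0.02. Cdh9, a cadherin gene, had -0.29 (SE 0.23), the nucleotide receptor gene P2ry1 -0.21 (SE 0.31) and Bhlha9 -0.14 (SE 0.17). Cacna1h, the T-type calcium channel gene of these neurons, had 393, 402 and 362 in Meis1cko and 357, 332 and 280 in control DRGs, a log2 fold change of 0.26 (SE 0.13). Its groups did not overlap, the Meis1cko mice being higher, and 6.64% of all probe sets did not overlap in either direction. Runx1, which the lineage depends on, had 0.03 (SE 0.26), and the mechanotransduction channel gene Piezo2 0.01 (SE 0.25). The Runx1 lineage also holds nonpeptidergic nociceptors. Where other cells of the ganglion make the RNA of a gene, its value can hide a change limited to C-LTMRs. The share of C-LTMRs in the RNA of these genes was not tested, so their median cannot show that C-LTMRs were unchanged. No probe set listed Slc17a8 or Pou4f2 alone, and they were not analysed here.

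Genes that act with some of the 6, or belong to the same gene families, were measured as well, and 0 of them were called in limma with or without pairing. Of 13 enzymes and transporters of catecholamine metabolism other than Th, 9 lay below 0 with a median of -0.05. The one with the smallest p was Pts, an enzyme in the synthesis of the cofactor of tyrosine hydroxylase, with 670, 583 and 473 in Meis1cko and 856, 790 and 668 in control DRGs, a log2 fold change of -0.43 (SE 0.17). Ddc, the enzyme after Th, had 0.09 and the cofactor enzyme gene Gch1 -0.05. Of the 4 other Tafa genes, Tafa2 and Tafa3 had 0.15 and 0.03. Tafa5 (-0.32, SE 0.13) and Tafa1 (-0.29, SE 0.13) had no Meis1cko mouse above a control mouse, which held for 3.43% of all probe sets. Among 8 receptors and ligands of the GDNF family beside Gfra2, the median was -0.00095, with -0.23 for Gfra3, -0.10 for Gfra1, 0.03 for the shared receptor gene Ret and -0.01 for neurturin, Nrtn. The 6 other genes of the whey acidic protein family had a median of -0.00356, the 6 other measured Ceacam genes one of -0.01, and the 5 genes of the Zfp521 relative Zfp423 and the EBF factors one of -0.08.

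Markers of other neurons were set beside the 6 genes to place the size of their differences. For the 8 pan-neuronal markers the median log2 fold change was 0.02, with 3 below 0, and their summed intensity was 65686 to 77218 in Meis1cko and 67970 to 77738 in control DRGs. The medians were 0.10 for 4 markers of Mrgprd nonpeptidergic neurons, -0.07 for 4 of peptidergic nociceptors and 0.12 for 7 of A-fibre mechanoreceptors and proprioceptors, all 7 of which lay above 0. Of the last group Ntrk3, a neurotrophin receptor gene, had 0.48 (SE 0.11). The 7 measured markers of satellite glia and Schwann cells had a median of -0.06, with -0.36 (SE 0.12) for the glial potassium channel gene Kcnj10, and the 6 immune cell markers one of -0.12. In these lists 0 genes were called in limma with or without pairing.

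**Figure D5:**
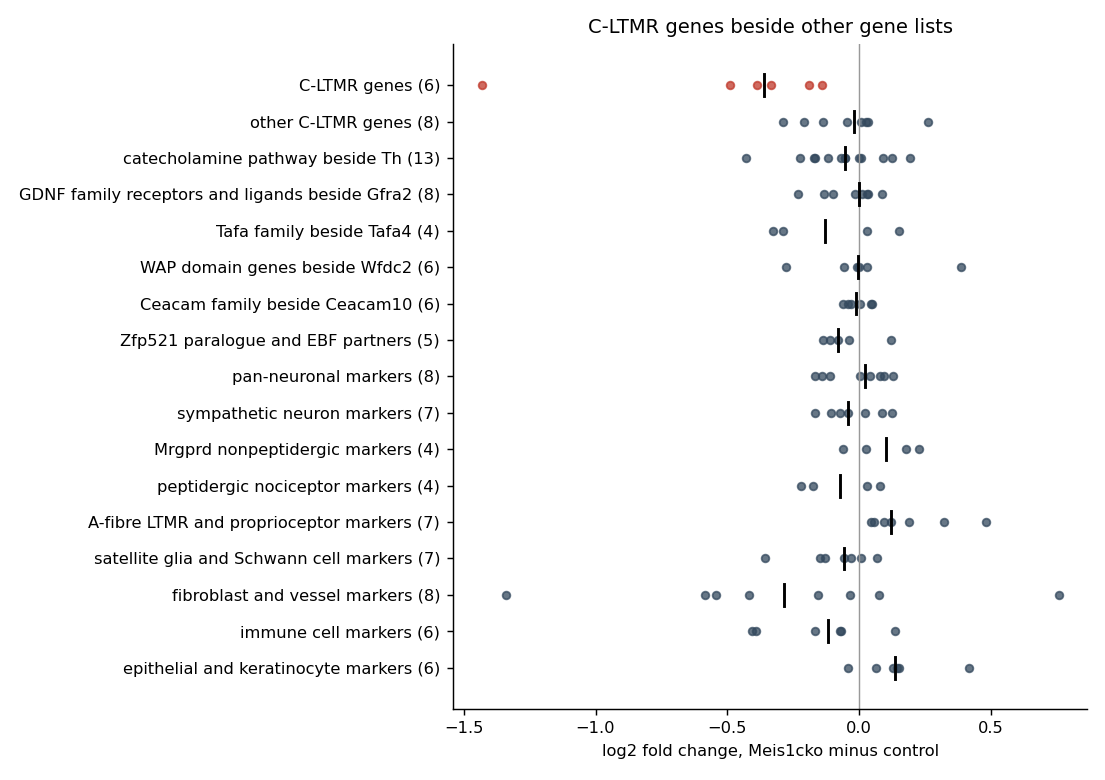
Log2 fold change (Meis1cko minus control) of the brightest probe set of each measured gene in 17 lists, with a black bar at the median of each list and the number of measured genes in brackets. The 6 C-LTMR genes (red) lie between -1.43 and -0.14 with a median of -0.36, and the other lists have medians between -0.29 and 0.14.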

How the data were processed

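RNA of whole DRGs was measured on 6 Affymetrix mouse arrays of 1 colour. The authors read the images with GeneChip Command Console, ran the basic analysis in GeneSpring and compared genotypes with t-tests. What was deposited is linear intensity, 1 normalized value per probe set, made by the authors with a method not given in the sources used here. How dim probe sets were treated is therefore unknown, and precision is limited by having 3 arrays per genotype.

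Intensities were taken to log2 with a floor of 1. The 64 control probe sets were left out. Names came from the array's annotation, updated through gene IDs of GRCm38.p6; 34945 probe sets list 1 gene, 932 several and 9160 none. Genotypes were compared over 45037 probe sets with limma 3.58.1 (lmFit, eBayes; R 4.3.3), tested on simulated data, with Benjamini-Hochberg adjustment and a threshold of 0.05. Groups came from the labels' titles. Same-numbered arrays deviated from their genotype means together (r = 0.424, 0.535 and 0.766), so the numbers were taken to pair them. Replicates 1 and 2 also correlated with each other across genotypes (0.337 and 0.319), so the pairing rests mostly on replicate 3.

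The 6 genes, the lists and the settings were chosen with earlier results of these data known. The genes named are the 6, Meis1, up to 4 genes of a list with the smallest p, with any that were called, and the 3 most like Wfdc2 and Th. Prph, the epithelial and sympathetic markers and further list genes given as values were named after seeing their values. Alternatives covered the spread estimate, the methods' t-test, normalization, a filter, an offset, the replicate block, left-out arrays and averaged probe sets. Blocks with a pair left out were added after seeing the data.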

Additional observations from a re-analysis of the deposited data

How the results depend on the processing

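Wfdc2, Th, Zfp521, Ceacam10 and Gfra2 kept their direction under all 18 alternatives, with log2 fold changes of -1.55 to -1.30 for Wfdc2, -0.76 to -0.23 for Th, -0.47 to -0.23 for Zfp521, -0.54 to -0.24 for Ceacam10 and -0.32 to -0.01 for Gfra2. Tafa4 ran between -0.32 and 0.02 with single arrays left out, and turned positive, at 0.0188, without Meis1cko replicate 3. The count of the 6 genes called in limma was 1, Wfdc2, with the replicate block, with the block and any 1 of the 3 pairs left out, and with the probe sets of each gene averaged, which leaves 18193 genes to adjust over (adjusted p = 0.0280), and 0 under every other alternative. Of all features, 0.0822% were called with the block, 0.0799%, 0.304% and 0.837% with the block and without pair 3, 2 or 1, and 0.044% with averaged probe sets, so these calls do not weigh the same. In the methods' t-test the adjusted p of Wfdc2 was 0.917. The count past the thresholds of the methods was 1 to 2 with single arrays left out, the second being Th without Meis1cko replicate 3, and 1 otherwise. The genes whose groups did not overlap were 2 with all arrays, where 6.64% of all probe sets did not in either direction, and 1 with averaged probe sets (7.14%). With fewer arrays non-overlap is more frequent. It held for 2 to 3 genes with single arrays left out (11.2% to 20.9% of all probe sets), for 3 without pair 1 or pair 2 (25.5% and 20.1%) and for 4 without pair 3 (32.6%), whether or not the block was fitted. The block changed no other call among the 6 genes. Depth has no meaning here, and dim probe sets such as Ceacam10 1436565_at carry little information.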
